A study of Rattus norvegicus with 33 samples.

Results

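The effect of recombinant human BMP-2 on the dorsal root ganglia (DRG) was examined at 3 days post-surgery (dps) on 6 of the 33 arrays of the series, 3 from rats with an rhBMP-2-soaked absorbable collagen sponge (rhBMP-2/ACS) and 3 from rats with a vehicle-soaked sponge (vehicle/ACS). The arrays were chosen by their labels alone. Both groups were Sasco/Sprague-Dawley rats of 13 weeks, female by the study's methods, and both had the same operation, in which the bovine type I collagen sponge was laid over the lumbar transverse processes. The comparison therefore sets the protein against its vehicle with surgery and collagen present on both sides, and 3 arrays from operated rats without a sponge give the level under surgery alone. Each array held the RNA of 1 rat by the methods, and only RNA of high integrity and concentration had been hybridised. The labels name no chip, slide or scan, so such batches could not be examined.

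Bone morphogenetic proteins are secreted dimers that bind paired type I and type II serine/threonine kinase receptors, which phosphorylate Smad1, Smad5 and Smad8 and switch on targets such as the Id genes and the pathway's own inhibitors. The DRG holds the cell bodies of sensory neurons, wrapped by satellite glia, with Schwann cells along their axons, resident macrophages, and a sheath of fibroblasts and perineurial cells rich in vessels. After injury to their axons, neurons and glia of the ganglion switch on transcription factors and growth-associated genes and macrophages gather among them.

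Of 22523 probes, 10206 were detected on enough arrays to be tested (detection p under 0.05 on at least 75% of the arrays of either group), and 7607 of these carried a gene symbol. Levels below are log2 intensities after background correction and quantile normalization, differences are rhBMP-2/ACS minus vehicle/ACS, and adjusted p-values come from limma with Benjamini-Hochberg adjustment over all 10206 probes. A gene is said to rise or fall where its adjusted p was under 0.05. By the labels replicates share only a number across groups. The p-values rest on the spread between animals within all 9 groups of the series (33 arrays), not within the 6 compared arrays alone. Sensory neuron markers were bright on all 6 arrays, although the probes of Calca and Scn9a were not detected on any of them. The summed linear intensity of these markers was 61798 to 63663 with rhBMP-2/ACS and 61698 to 67589 with vehicle/ACS. The brightest, Nefl and Prph, did not pass. Of the 9 tested, 2 fell, Nefm (log2 fold change -0.30, adjusted p = 0.0145) and Uchl1 (log2 fold change -0.31, adjusted p = 0.018), and none rose.

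In total 1329 probes (13% of those tested) passed the test, 736 higher (7.21%) and 593 lower (5.81%) with rhBMP-2/ACS. The changes upward were the larger ones, with a median log2 difference of 0.63 over the probes that rose and of -0.44 over those that fell, and of the 162 probes that moved more than 2-fold 154 were higher. At 2566 probes (25.1%) the groups did not overlap, 1179 of them with rhBMP-2/ACS above and 1387 with it below. Set against the arrays without a sponge, 632 of the 736 probes that rose stood above the mean of surgery alone on all 3 rhBMP-2/ACS arrays, and 457 of the 593 that fell stood below it. These probes were called on the same rhBMP-2/ACS arrays, which favours such counts, and the share over all tested probes is not given here. When each array was scaled to an equal median in place of quantile normalization, the median difference over all probes moved by 0.11 to 0.08, and 918 probes passed, 832 higher and 86 lower, so that the share of calls that were higher was 90.6% in place of 55.4%. The smaller changes downward thus depended on the scaling.

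**Figure D1:**
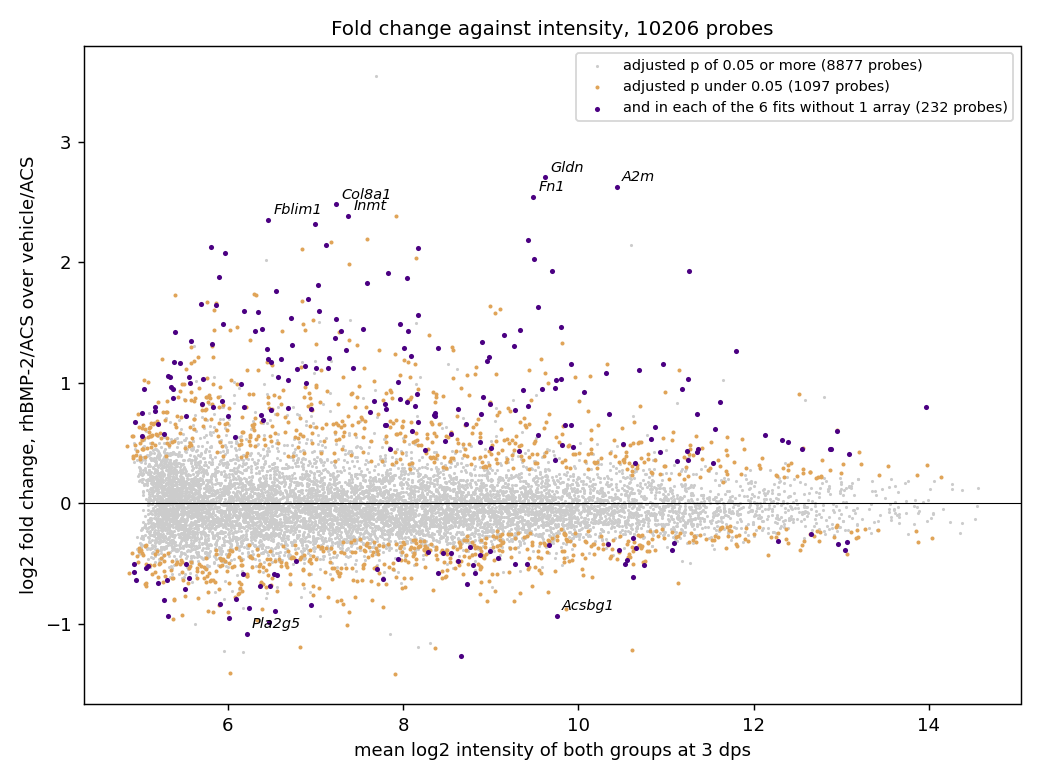
Log2 difference (rhBMP-2/ACS minus vehicle/ACS, vertical axis) against mean log2 intensity (horizontal axis) of each of the 10206 tested probes at 3 dps, coloured by whether a probe did not pass, passed, or passed in every fit, with 6 genes of the largest stable rise and 2 of the largest stable fall labelled. Probes that passed above the line reach farther from 0 than those below it, 154 against 8 of them lying beyond 2-fold.

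A single array set much of the size of this comparison. Replicate 3 of rhBMP-2/ACS was the highest of the 6 arrays at 84.9% of the probes that rose and the lowest at 74.4% of those that fell. Averaged over the probes that rose, the arrays stood at 0.38, 0.50 and 0.89 relative to the surgery-alone mean with rhBMP-2/ACS (replicates 1 to 3), against -0.21, -0.24 and -0.02 with vehicle/ACS. These probes were called on the same arrays, so the order of the groups in this average is largely fixed by the choice. On the 895 probes called higher in the fit without replicate 1 of rhBMP-2/ACS, that array stood on average 0.44 above the vehicle/ACS mean, while the fit gave 0.82, and it lay above every vehicle/ACS array at 690 of them (77.1%). On the 182 probes called higher without replicate 3 of rhBMP-2/ACS, that array stood 1.33 above, while the fit gave 0.89, and it lay above every vehicle/ACS array at 178 (97.8%). The vehicle/ACS arrays took part in both of these choices. Without replicate 3 of rhBMP-2/ACS 260 probes passed (182 higher, 78 lower), of which 253 were among the 1329, and without replicate 2 of vehicle/ACS 619 passed (405 higher, 214 lower). Leaving out any of the other arrays left between 1044 and 1743 probes. A fit of the 6 arrays alone, without the other groups that add to the estimate of spread, passed 179 probes (154 higher, 25 lower). Without both replicate 3 of rhBMP-2/ACS and replicate 2 of vehicle/ACS 46 probes passed, among them 5 of the 24 genes of largest stable change. A core of 232 probes (2.27%), 171 higher and 61 lower, passed with all arrays and again in each of the 6 fits that left out 1 array, and these are called stable below. They stood for 182 genes, 135 higher and 47 lower.

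**Figure D2:**
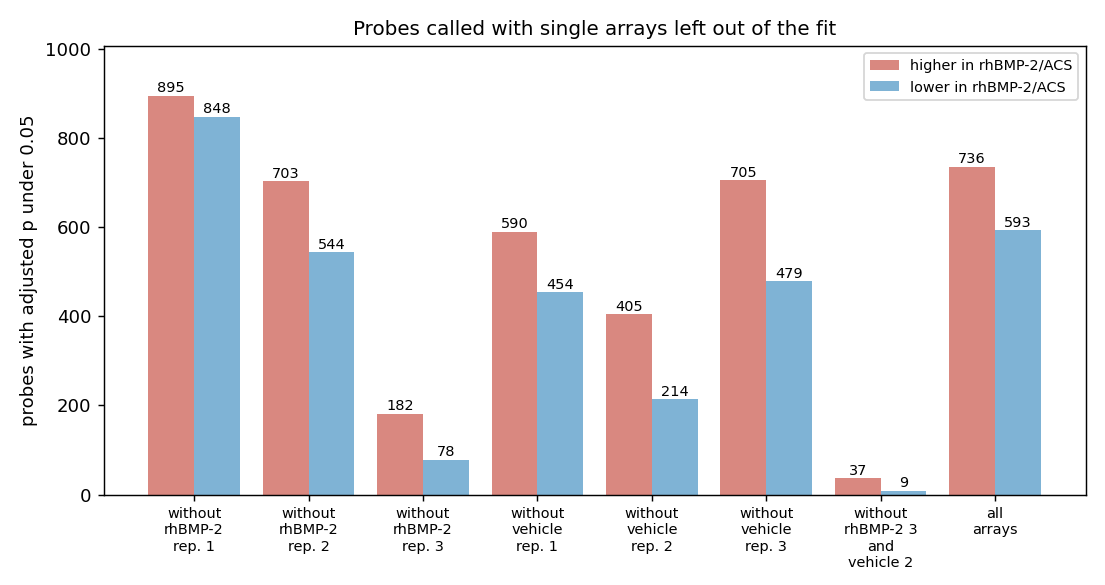
Number of probes that passed (vertical axis), higher and lower with rhBMP-2/ACS, with each array left out in turn, with 2 arrays left out together, and with all arrays (horizontal axis). Among the bars with 1 array out the shortest are those without replicate 3 of rhBMP-2/ACS, at 182 higher and 78 lower, followed by those without replicate 2 of vehicle/ACS, at 405 higher and 214 lower.

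The largest rise belonged to Gldn, which encodes gliomedin, which Schwann cells secrete to cluster axonal sodium channels at the nodes. Its log2 intensity was 10.41, 10.63 and 11.86 on the rhBMP-2/ACS arrays, against 7.97, 7.85 and 8.97 on the vehicle/ACS arrays (replicates 1 to 3; log2 fold change 2.71, SE 0.452, adjusted p = 0.000457, 6.53-fold). All rhBMP-2/ACS arrays stood above all vehicle/ACS arrays by more than 1 log2 unit. A2m, a broad protease inhibitor and acute phase protein of the rat, followed with 11.35, 11.66 and 12.24 with rhBMP-2/ACS and 8.76, 8.75 and 9.86 with vehicle/ACS (log2 fold change 2.63, SE 0.337, adjusted p = 5.45e-05, 6.18-fold). Fn1, the matrix glycoprotein fibronectin, was at 9.79, 10.42 and 12.04 with rhBMP-2/ACS, against 7.76, 7.84 and 9.02 with vehicle/ACS (log2 fold change 2.54, SE 0.428, adjusted p = 0.000457). In these 3 genes replicate 3 was the highest array of each group and the groups stayed apart.

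**Figure D3:**
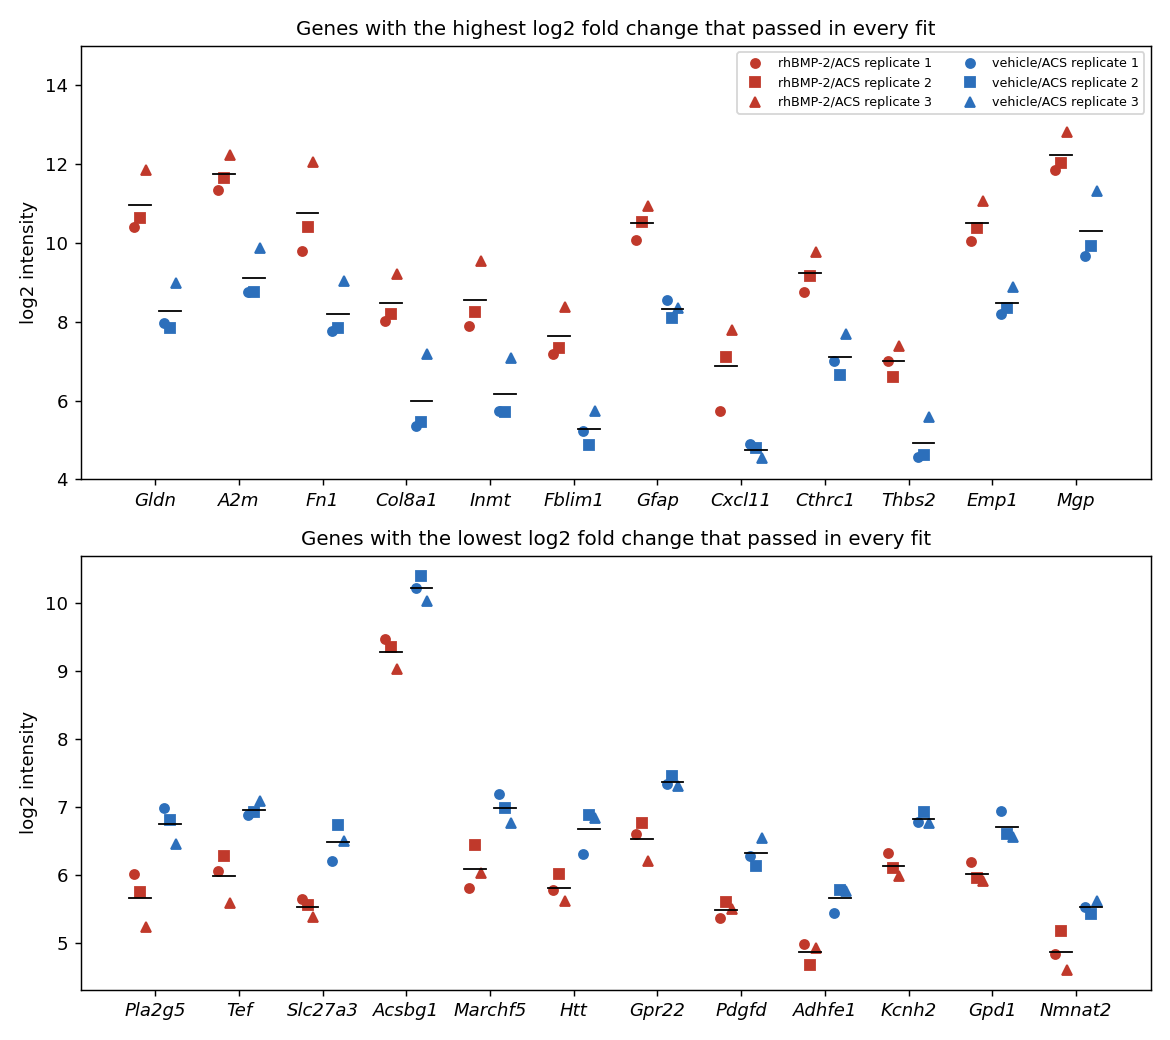
Log2 intensity (vertical axis) of the 12 genes with the largest stable rise and the 12 with the largest stable fall, 1 point per array, rhBMP-2/ACS left of vehicle/ACS, with symbols for the replicate and bars at the group means. The rhBMP-2/ACS and vehicle/ACS points do not overlap for any of the 24 genes, which were chosen for this.

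The other genes with the largest stable rises were spread over matrix, adhesion, glial and chemokine genes. Thbs2, a matricellular thrombospondin, was at 7.01, 6.61 and 7.39 on the rhBMP-2/ACS arrays, against 4.57, 4.62 and 5.58 on the vehicle/ACS arrays (log2 fold change 2.08, adjusted p = 0.00116). It was detected on 1 of the 3 vehicle/ACS arrays, so this difference rests in part on levels under the detection limit. This also holds for Cd3g, Clec4a1, Cybb, Pycard, Sox18, Pla2g4a and Il1b, each detected on 1 vehicle/ACS array, for Nmnat2, detected on 1 rhBMP-2/ACS array, and for Fblim1, Itga5, Cd14, Cd72, Tlr2, Tlr6, Egfl7, Selp, Fap, Prg4, Fgf2 and Ptgs2, each detected on 2 vehicle/ACS arrays. Inmt, a methyltransferase of indolamines, was at 7.89, 8.25 and 9.55 with rhBMP-2/ACS and 5.73, 5.71 and 7.09 with vehicle/ACS (log2 fold change 2.39, adjusted p = 0.00117), and Emp1, a tetraspan membrane protein of the PMP22 family, was at 10.06, 10.39 and 11.07 with rhBMP-2/ACS, against 8.20, 8.36 and 8.88 with vehicle/ACS (log2 fold change 2.03, adjusted p = 0.000282). For Inmt the third vehicle/ACS array was the highest of its group and still lay below the lowest rhBMP-2/ACS array.

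Collagen genes were among those that rose, with 9 of 14 tested members higher, none lower, and a median log2 difference of 0.62, against -0.04 over all tested probes (7.21% of which were higher). Averaged over the members, the level was 8.38, 8.55 and 8.92 on the rhBMP-2/ACS arrays, against 7.68, 7.75 and 8.23 on the vehicle/ACS arrays. Col8a1, a network-forming collagen made by endothelium and smooth muscle, was at 8.03, 8.20 and 9.20 on the rhBMP-2/ACS arrays, against 5.35, 5.45 and 7.18 on the vehicle/ACS arrays (log2 fold change 2.48, adjusted p = 0.000499). Col18a1, a basement membrane collagen whose fragment is endostatin, was at 8.69, 8.78 and 9.46 with rhBMP-2/ACS and 6.85, 7.10 and 7.36 with vehicle/ACS (log2 fold change 1.87, adjusted p = 0.000239). Neither overlapped between groups. Col6a1 and Col5a2, chains of microfibrillar and fibrillar collagen, rose by 1.49 and 1.02 on the log2 scale and were stable. The count of higher members was 5 without replicate 3 of rhBMP-2/ACS or with the 6 arrays alone.

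Among matrix glycoproteins and proteoglycans 13 of 26 rose and none fell (median 0.67), with 6 without replicate 3 of rhBMP-2/ACS or with the 6 arrays alone. Mgp, which binds BMPs and holds back calcification, was at 11.85, 12.02 and 12.82 with rhBMP-2/ACS, against 9.67, 9.93 and 11.33 with vehicle/ACS (log2 fold change 1.92, adjusted p = 0.000499). Vcan, the large proteoglycan versican, was at 7.02, 7.19 and 8.06 on the rhBMP-2/ACS arrays, against 5.69, 5.38 and 5.92 on the vehicle/ACS arrays (log2 fold change 1.76, adjusted p = 0.000499). Spp1, the secreted phosphoprotein osteopontin, was at 14.15, 14.43 and 14.53 with rhBMP-2/ACS and 13.68, 13.51 and 13.52 with vehicle/ACS (log2 fold change 0.80, adjusted p = 0.000121). Spp1 moved less than the other 2 but with little spread within the groups, and all 3 were stable.

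Of 18 enzymes that modify collagen 9 rose and none fell (median 0.40; 1 with the 6 arrays alone, 3 without replicate 3 of rhBMP-2/ACS and 5 without replicate 2 of vehicle/ACS). Adamts2, which cuts the propeptide from procollagen, was at 6.61, 7.17 and 7.29 with rhBMP-2/ACS, against 5.30, 5.68 and 5.79 with vehicle/ACS (log2 fold change 1.43, adjusted p = 0.00154), and P3h1 and Ppib, partners in prolyl 3-hydroxylation, rose by 0.68 and 0.36. These 3 were stable, whereas Plod3, a lysyl hydroxylase, passed with all arrays (log2 fold change 0.63, adjusted p = 0.00553) but did not pass without replicate 3 of rhBMP-2/ACS (adjusted p = 0.0734). Cthrc1, a secreted collagen triple helix repeat protein, was at 8.76, 9.15 and 9.78 on the rhBMP-2/ACS arrays, against 7.01, 6.66 and 7.68 on the vehicle/ACS arrays (log2 fold change 2.11, adjusted p = 0.000141).

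Of the matrix proteases and their inhibitors 7 of 16 rose and 1 fell (median 0.40; 2 without replicate 3 of rhBMP-2/ACS or with the 6 arrays alone). The fall was in Adamts5, an aggrecan-cleaving protease, named here after its values were seen, and no member fell without replicate 1 or replicate 3 of rhBMP-2/ACS or without replicate 1 or replicate 2 of vehicle/ACS. Timp1, an inhibitor of metalloproteinases, was at 12.22, 12.39 and 12.69 with rhBMP-2/ACS and 11.26, 10.73 and 11.52 with vehicle/ACS (log2 fold change 1.27, adjusted p = 0.00277), and Adamts9, a versican-cleaving protease, at 7.53, 8.05 and 8.13 with rhBMP-2/ACS, against 6.65, 6.03 and 6.94 with vehicle/ACS (log2 fold change 1.37, adjusted p = 0.000825). Both were stable. The cathepsins Ctsk and Ctss, lysosomal proteases of osteoclasts and of antigen-presenting cells, rose by 1.40 and 1.08, but Ctsk did not pass without replicate 3 of rhBMP-2/ACS (adjusted p = 0.0729) and Ctss did not pass without replicate 3 of rhBMP-2/ACS or replicate 1 of vehicle/ACS (adjusted p = 0.0636 to 0.0715).

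Of 18 adhesion genes 4 were higher (22.2%, beside 7.21% of all probes) and 1 lower (median 0.09), with 2 without replicate 3 of rhBMP-2/ACS or replicate 1 of vehicle/ACS or with the 6 arrays alone. The lower gene was the integrin Itgb6, singled out after its values were seen, and it passed again only without replicate 1 of rhBMP-2/ACS. Fblim1, the filamin-binding adaptor migfilin, was at 7.19, 7.34 and 8.38 on the rhBMP-2/ACS arrays, against 5.23, 4.87 and 5.74 on the vehicle/ACS arrays (log2 fold change 2.35, adjusted p = 0.000861), and its partner family was represented by Flnc, filamin C, at 6.63, 6.92 and 7.71 with rhBMP-2/ACS and 5.96, 5.45 and 6.00 with vehicle/ACS (log2 fold change 1.28, adjusted p = 0.00191). Both were stable and without overlap. Flna rose by 0.53 but did not pass without replicate 3 of rhBMP-2/ACS or replicate 1 or 2 of vehicle/ACS (adjusted p = 0.0646 to 0.186), and the fibronectin receptor subunit Itga5 rose by 0.82 but did not pass without replicate 3 of rhBMP-2/ACS or replicate 1 of vehicle/ACS (adjusted p = 0.108 to 0.172).

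All 5 tested fibroblast markers of the cell type check were higher, their summed linear intensity being 20009 to 24472 with rhBMP-2/ACS and 11284 to 18951 with vehicle/ACS. Of these markers Col1a1 and Lum overlapped between groups, and Dcn did not pass without replicate 3 of rhBMP-2/ACS or replicate 1 of vehicle/ACS. In the wider fibroblast list 5 of 13 rose (median 0.62; 2 without replicate 3 of rhBMP-2/ACS, 3 with the 6 arrays alone and 8 without replicate 1 of rhBMP-2/ACS). Its mean level was 9.13 with rhBMP-2/ACS, 8.41 with vehicle/ACS and 8.65 under surgery alone. In bulk tissue more cells of a type and more RNA per cell cannot be told apart. S100a4, a calcium-binding protein of fibroblasts and leukocytes, was at 11.71, 11.69 and 11.92 with rhBMP-2/ACS, against 10.80, 10.50 and 10.91 with vehicle/ACS (log2 fold change 1.03, adjusted p = 0.000501). In the perineurial and leptomeningeal list 3 of 12 rose and 1 fell, and Crabp2, a retinoic acid carrier, was at 9.66, 9.52 and 10.38 on the rhBMP-2/ACS arrays, against 8.91, 7.92 and 8.52 on the vehicle/ACS arrays (log2 fold change 1.40, adjusted p = 0.002). Pdgfra, the receptor that marks fibroblasts, was at 6.83, 7.61 and 8.36 with rhBMP-2/ACS and 5.34, 6.46 and 6.53 with vehicle/ACS (log2 fold change 1.49, adjusted p = 0.00339), but did not pass without replicate 3 of rhBMP-2/ACS (adjusted p = 0.0685). Fap, a serine protease of activated fibroblasts, rose by 1.67 but did not pass without replicate 3 of rhBMP-2/ACS (adjusted p = 0.0616). The leptomeningeal marker sum was 1894 to 2571 with rhBMP-2/ACS and 1230 to 1389 with vehicle/ACS, most of it from Ptgds. Neither of the 2 tested leptomeningeal markers passed in limma (Ptgds, adjusted p = 0.167, and Slc22a6, adjusted p = 0.158). Cartilage and bone markers summed to 319 to 352 with rhBMP-2/ACS and 378 to 411 with vehicle/ACS, and none of the 3 tested passed in limma (1 had an unadjusted p under 0.05).

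Macrophage and monocyte genes rose in 17 of 23 members, with none lower and a median of 0.95. Their mean level was 7.34, 7.58 and 8.14 on the rhBMP-2/ACS arrays, against 6.55, 6.71 and 7.11 on the vehicle/ACS arrays. Fcer1g, the gamma chain shared by Fc receptors, was at 9.94, 10.13 and 10.98 with rhBMP-2/ACS, against 8.08, 8.77 and 9.31 with vehicle/ACS (log2 fold change 1.63, adjusted p = 0.000801). Cyba and Cybb, which form the membrane core of the phagocyte NADPH oxidase, rose by 0.95 and 0.97, and Clec4a1, a C-type lectin receptor, by 1.33. These 4 were stable. Aif1, the calcium-binding protein Iba1 used to stain macrophages, was at 10.19, 10.36 and 10.91 on the rhBMP-2/ACS arrays, against 9.15, 9.18 and 9.98 on the vehicle/ACS arrays (log2 fold change 1.05, adjusted p = 0.00465), but did not pass without replicate 3 of rhBMP-2/ACS (adjusted p = 0.0718). The count of the list was 6 without replicate 3 of rhBMP-2/ACS or with the 6 arrays alone. The summed macrophage markers were 1600 to 2634 with rhBMP-2/ACS and 742 to 1324 with vehicle/ACS, most of it from Aif1. Of the 4 tested markers 3 rose, and Mrc1 did not pass in limma (log2 fold change 0.74, adjusted p = 0.14). Cd163 was below the detection filter and not tested.

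**Figure D4:**
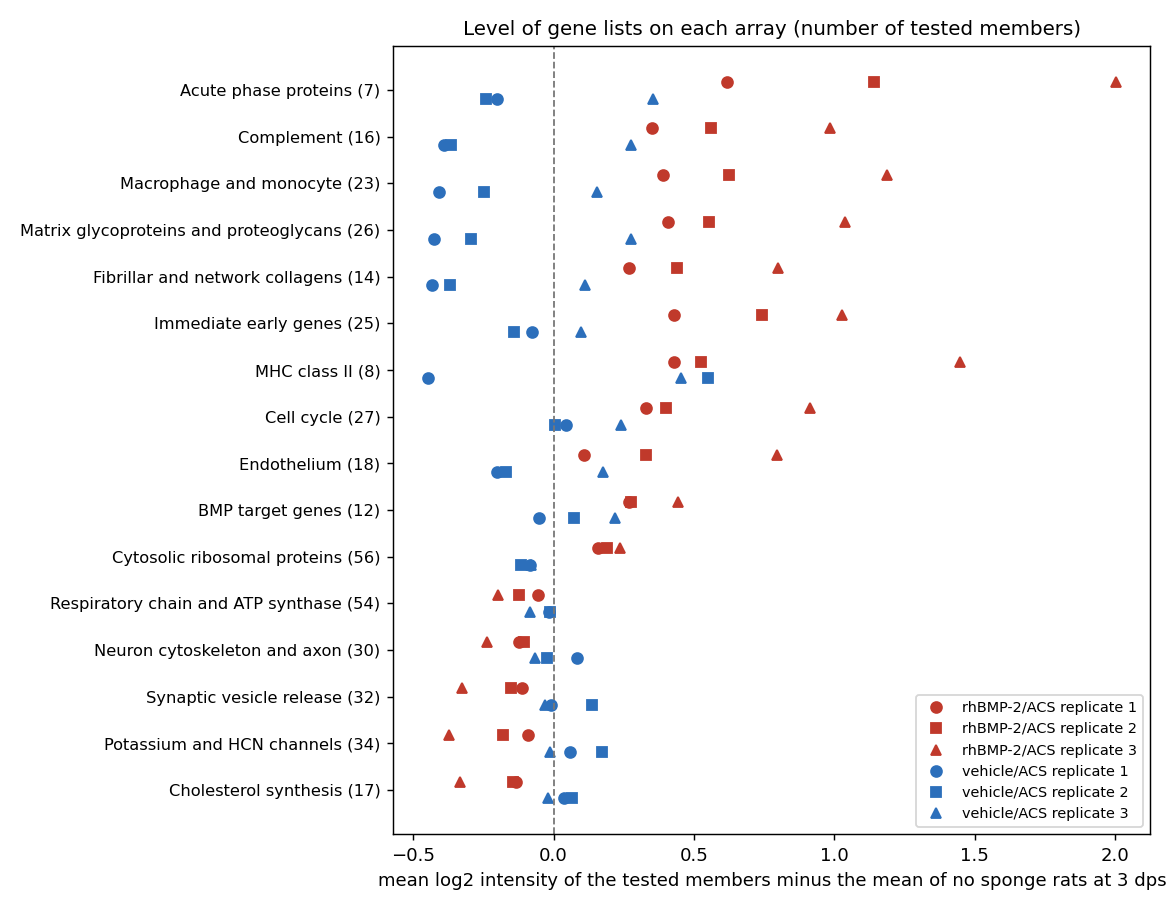
Mean log2 intensity of the tested members of selected gene lists relative to the mean of the arrays without a sponge (horizontal axis), 1 point per array, rhBMP-2/ACS above vehicle/ACS in each row. Macrophage, complement and matrix lists lie to the right for rhBMP-2/ACS with replicate 3 farthest out. On the neuronal lists the rhBMP-2/ACS points lie left of 0, also with replicate 3 farthest out, and the vehicle/ACS points lie on both sides of 0.

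Complement genes rose in 9 of 16 tested members (none lower, median 1.00), at a mean level of 8.76, 8.97 and 9.39 on the rhBMP-2/ACS arrays, against 8.02, 8.04 and 8.69 on the vehicle/ACS arrays. C1qa and C1qb, chains of the recognition molecule of the classical pathway, were at 7.87, 7.60 and 8.54 with rhBMP-2/ACS and 5.83, 6.59 and 7.00 with vehicle/ACS for C1qa (log2 fold change 1.53, adjusted p = 0.000801) and 8.54, 8.68 and 9.62 with rhBMP-2/ACS and 6.96, 7.22 and 7.96 with vehicle/ACS for C1qb (log2 fold change 1.57, adjusted p = 0.000871). Serping1, the C1 inhibitor, was at 10.04, 10.38 and 11.19 with rhBMP-2/ACS and 8.94, 8.51 and 9.76 with vehicle/ACS (log2 fold change 1.47, adjusted p = 0.000794). C4b rose by 1.18, and all 4 genes were stable. The count of higher members was 3 with the 6 arrays alone, 4 without replicate 3 of rhBMP-2/ACS and 5 without replicate 1 or 2 of vehicle/ACS.

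Of 7 acute phase genes 4 rose and none fell, with a median of 1.46 (2 without replicate 3 of rhBMP-2/ACS). Beside A2m, Cp, the copper oxidase ceruloplasmin, was at 7.14, 7.74 and 8.63 with rhBMP-2/ACS, against 6.20, 6.13 and 6.39 with vehicle/ACS (log2 fold change 1.60, adjusted p = 0.000574), without overlap. Cd14, the lipopolysaccharide co-receptor, rose by 1.46 but did not pass without replicate 3 of rhBMP-2/ACS (adjusted p = 0.0565). Itih3, a hyaluronan-binding serum protein, rose by 1.13 but did not pass without replicate 2 or 3 of rhBMP-2/ACS or replicate 2 of vehicle/ACS (adjusted p = 0.0909 to 0.128).

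No neutrophil gene of the 6 tested passed in limma (3 had an unadjusted p under 0.05), although all 6 differences were positive (median 0.75). S100a8, a subunit of calprotectin, was at 7.92, 7.34 and 9.19 on the rhBMP-2/ACS arrays, against 7.30, 7.18 and 7.16 on the vehicle/ACS arrays (log2 fold change 0.94, SE 0.607, adjusted p = 0.32), and only replicate 3 of rhBMP-2/ACS stood far above the rest. Lcn2, the iron-siderophore binding protein lipocalin, gave log2 fold change 0.44, adjusted p = 0.32. Among T cell and NK cell genes 1 of 5 rose (20%, beside 7.21% of all probes), with 3 differences positive and a median of 0.12. The gene was Cd3g, a chain of the T cell receptor complex, at 6.48, 6.57 and 7.02 with rhBMP-2/ACS and 4.92, 4.60 and 5.60 with vehicle/ACS (log2 fold change 1.65, adjusted p = 0.000457), stable and without overlap. The probes of Cd3e and Lck were not detected on any array, and that of Cd3d, detected on 1 rhBMP-2/ACS array, was not tested. Neither of the 2 tested B cell genes passed in limma, with 1 at an unadjusted p under 0.05 (Xbp1, log2 fold change 0.29, adjusted p = 0.158; Cd72, log2 fold change -0.11, adjusted p = 0.884), and of 3 mast cell genes Kit, the stem cell factor receptor, fell (log2 fold change -0.66, adjusted p = 0.0369) but did not pass without replicate 3 of rhBMP-2/ACS or replicate 2 or 3 of vehicle/ACS (adjusted p = 0.0797 to 0.348).

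Genes of MHC class II presentation rose in 4 of 8 and all 8 differences were positive (median 0.54), but 5 were positive without replicate 3 of rhBMP-2/ACS (median 0.19). Ifi30, a thiol reductase of the antigen-processing compartment, was at 6.85, 7.25 and 7.93 with rhBMP-2/ACS, against 6.03, 6.15 and 6.49 with vehicle/ACS (log2 fold change 1.12, adjusted p = 0.000729) and was stable. RT1-DMb and RT1-DMa, which load peptides onto class II molecules, rose by 1.05 and 0.66, but RT1-DMb did not pass without replicate 3 of rhBMP-2/ACS (adjusted p = 0.0705) and RT1-DMa did not pass without replicate 3 of rhBMP-2/ACS or replicate 1 of vehicle/ACS (adjusted p = 0.139 to 0.293). The count of higher members was none with the 6 arrays alone, 1 without replicate 3 of rhBMP-2/ACS and 2 without replicate 1 of vehicle/ACS.

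Chemokine genes gave 5 rises and 1 fall among 20 (median 0.40), with 2 without replicate 3 of rhBMP-2/ACS or replicate 1 or 2 of vehicle/ACS, 3 with the 6 arrays alone and 8 without replicate 3 of vehicle/ACS. The fall was in Cxcr4, the receptor of Cxcl12, singled out after its values were seen, and it did not pass with any of the 6 arrays left out. Cxcl11 and Cxcl10 are neighbouring genes for ligands of the receptor Cxcr3, which draws activated T cells, and both are induced by interferon. Their sequence over the 250 bases before the transcription start is shown because these were the 2 chemokines with a stable rise. It is from RefSeq on GRCr8, with capitals marking matches to the core of an interferon response element (GAAA, any 2 bases and GAAA again) or to TGANTCA (an AP-1 site), searched on both strands. Of 33469 promoters in the reference, 3.41% held the first and 6.34% the second in this window. Cxcl11 lies at chr14:15973478-15973727 and Cxcl10 at chr14:15988816-15989065, both on the plus strand.
Cxcl11: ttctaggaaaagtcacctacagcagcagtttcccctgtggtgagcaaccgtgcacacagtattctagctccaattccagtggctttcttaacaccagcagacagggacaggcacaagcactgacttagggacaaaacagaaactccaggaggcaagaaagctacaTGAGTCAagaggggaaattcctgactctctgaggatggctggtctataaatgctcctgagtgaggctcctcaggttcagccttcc
Cxcl10: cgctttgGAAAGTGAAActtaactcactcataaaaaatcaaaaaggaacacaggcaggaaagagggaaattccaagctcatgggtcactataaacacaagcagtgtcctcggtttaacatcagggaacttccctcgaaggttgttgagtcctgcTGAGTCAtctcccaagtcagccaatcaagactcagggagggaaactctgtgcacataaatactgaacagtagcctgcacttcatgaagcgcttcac

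Both windows hold the letters TGAGTCA, 85 to 79 bases before the start of Cxcl11 and 96 to 90 before that of Cxcl10, and Cxcl10 alone holds GAAAGTGAAA, 243 to 234 before its start. Cxcl11 had a log2 intensity of 5.73, 7.11 and 7.78 on the rhBMP-2/ACS arrays, against 4.89, 4.80 and 4.55 on the vehicle/ACS arrays (adjusted p = 0.000197). It was not detected on any vehicle/ACS array, so its rise was at least 3.59-fold, taken against the lowest detected signal. Cxcl10 was at 7.14, 7.60 and 8.54 with rhBMP-2/ACS and 6.71, 5.70 and 5.78 with vehicle/ACS (log2 fold change 1.70, adjusted p = 0.00126). For both, every rhBMP-2/ACS array stood above every vehicle/ACS array and replicate 1 of rhBMP-2/ACS was the lowest of its group. Ccl6 and Pf4, chemokines of macrophages and of platelets, rose by 0.90 and 1.27, but Ccl6 did not pass without replicate 3 of rhBMP-2/ACS or replicate 1 or 2 of vehicle/ACS (adjusted p = 0.0538 to 0.218) and Pf4 did not pass without replicate 1 or 3 of rhBMP-2/ACS or replicate 1 or 2 of vehicle/ACS (adjusted p = 0.0702 to 0.188). Ccl2, the main attractant of monocytes, was at 8.68, 9.01 and 9.56 with rhBMP-2/ACS, against 9.29, 8.82 and 8.68 with vehicle/ACS (log2 fold change 0.15, adjusted p = 0.781), and its groups overlapped.

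The wider interferon list was closer to the rest of the array, 5 of 31 higher and 1 lower with a median of 0.13 (2 without replicate 3 of rhBMP-2/ACS and 8 without replicate 1 of rhBMP-2/ACS). The paired GAAA element stood in the promoter window of 18 of its 29 members with a sequence (62.1%) and of 3 of the 5 that rose. Gbp2, an interferon-induced GTPase, rose by 1.61 but did not pass without replicate 3 of rhBMP-2/ACS (adjusted p = 0.0695). Ifi27 fell (log2 fold change -0.43, adjusted p = 0.0125) but did not pass without replicate 3 of rhBMP-2/ACS or replicate 2 of vehicle/ACS (adjusted p = 0.0611 to 0.117).

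Cytokines and their receptors gave 5 rises among 21 and no fall (median 0.37; 2 without replicate 3 of rhBMP-2/ACS or with the 6 arrays alone, 3 without replicate 2 of vehicle/ACS and 8 without replicate 1 of rhBMP-2/ACS). Tnfrsf12a, the receptor Fn14 for the cytokine TWEAK, was at 7.97, 8.15 and 8.65 on the rhBMP-2/ACS arrays, against 6.92, 6.67 and 6.85 on the vehicle/ACS arrays (log2 fold change 1.44, adjusted p = 0.0013) and was stable. Clcf1, a ligand of the CNTF receptor, was at 5.13, 5.48 and 5.94 with rhBMP-2/ACS and 4.60, 4.55 and 4.54 with vehicle/ACS (adjusted p = 0.000457), was not detected on any vehicle/ACS array, and rose at least 1.40-fold. Osmr, the oncostatin M receptor, rose by 0.70 but did not pass without replicate 3 of rhBMP-2/ACS or replicate 2 or 3 of vehicle/ACS (adjusted p = 0.106 to 0.216), and Nfkb2 rose by 0.96 but did not pass without replicate 3 of rhBMP-2/ACS (adjusted p = 0.0968). Il1b, the inflammatory cytokine interleukin-1 beta, did not pass, at 5.37, 5.32 and 6.26 with rhBMP-2/ACS, against 4.79, 4.63 and 5.40 with vehicle/ACS (log2 fold change 0.71, SE 0.298, adjusted p = 0.111). Of the Toll-like receptor genes 4 of 13 rose (1 without replicate 3 of rhBMP-2/ACS or with the 6 arrays alone and 2 without replicate 1 of vehicle/ACS), among them Tlr6 (log2 fold change 0.82, adjusted p = 0.00267), which was stable, Tlr2 (log2 fold change 0.99, adjusted p = 0.0363), which did not pass without replicate 3 of rhBMP-2/ACS or replicate 1 of vehicle/ACS (adjusted p = 0.178 to 0.317), and the inflammasome adaptor Pycard (log2 fold change 1.30, adjusted p = 0.012), which did not pass without replicate 3 of rhBMP-2/ACS or replicate 1 of vehicle/ACS (adjusted p = 0.0593 to 0.178).

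Immediate early genes, which are transcribed within minutes of a stimulus without new protein synthesis, rose in 15 of 25 members, and all 25 differences were positive (median 0.59). Their mean level was 8.16, 8.47 and 8.76 on the rhBMP-2/ACS arrays, against 7.65, 7.59 and 7.83 on the vehicle/ACS arrays. Egr1 and Egr2, zinc finger transcription factors of the Krox family, are shown by the same window because both had a stable rise. Capitals mark the CArG box, the binding sequence of serum response factor, searched on both strands and found in 1.5% of all promoters and in 5 of 17 list members with a sequence (29.4%), 3 of them among the 12 that rose. Egr1 lies at chr18:26736828-26737077 on the plus strand and Egr2 at chr20:21054442-21054691 on the minus strand, in RefSeq on GRCr8.
Egr1: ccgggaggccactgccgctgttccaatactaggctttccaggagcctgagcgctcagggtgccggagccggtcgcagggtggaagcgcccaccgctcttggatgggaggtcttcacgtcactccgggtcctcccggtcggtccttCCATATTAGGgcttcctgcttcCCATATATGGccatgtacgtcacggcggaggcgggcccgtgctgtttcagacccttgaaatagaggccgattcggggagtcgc
Egr2: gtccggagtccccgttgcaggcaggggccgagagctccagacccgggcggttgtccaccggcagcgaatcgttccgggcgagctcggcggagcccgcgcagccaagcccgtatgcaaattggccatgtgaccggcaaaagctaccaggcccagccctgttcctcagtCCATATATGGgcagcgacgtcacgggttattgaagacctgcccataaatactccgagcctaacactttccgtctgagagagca

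The letters CCATATATGG stand 83 to 74 bases before the start in both, and Egr1 holds CCATATTAGG at 105 to 96 besides. Egr2 was at 11.23, 10.98 and 11.52 on the rhBMP-2/ACS arrays, against 10.19, 9.76 and 10.46 on the vehicle/ACS arrays (log2 fold change 1.11, SE 0.186, adjusted p = 0.000457) and Egr1 at 8.60, 9.13 and 9.39 with rhBMP-2/ACS and 7.49, 7.85 and 7.90 with vehicle/ACS (log2 fold change 1.29, SE 0.265, adjusted p = 0.00228). Neither gene overlapped between groups. Ccn1, a matricellular protein encoded by an immediate early gene, rose by 1.83 and Junb, a subunit of AP-1, by 1.43, both stable. Fos, the partner of Jun proteins in AP-1, was at 8.39, 9.47 and 9.64 with rhBMP-2/ACS, against 6.58, 7.59 and 7.23 with vehicle/ACS (log2 fold change 2.03, adjusted p = 0.00806) but did not pass without replicate 3 of rhBMP-2/ACS (adjusted p = 0.0744), and Atf3, a factor induced in injured sensory neurons, was at 7.69, 7.45 and 8.08 on the rhBMP-2/ACS arrays, against 7.81, 6.61 and 7.15 on the vehicle/ACS arrays (log2 fold change 0.55, adjusted p = 0.298). The higher members of the list numbered 5 without replicate 3 of rhBMP-2/ACS, 8 with the 6 arrays alone and 9 without replicate 2 of vehicle/ACS.

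In the BMP pathway itself 1 gene had a stable rise. Of 23 ligands, receptors, Smads and secreted inhibitors of the BMP and TGF-beta families 3 rose and none fell (13%, beside 7.21% of all probes; median 0.14), and of 12 target genes 3 rose (25%; median 0.05). Fstl3, a secreted inhibitor that binds activin and BMPs, was at 8.52, 8.53 and 9.06 with rhBMP-2/ACS and 7.54, 7.25 and 7.65 with vehicle/ACS (log2 fold change 1.22, SE 0.19, adjusted p = 0.000247) and was the stable one among them. Bambi, a pseudoreceptor that is also a BMP target, was at 8.06, 8.16 and 8.55 with rhBMP-2/ACS, against 7.44, 7.61 and 7.97 with vehicle/ACS (log2 fold change 0.59, adjusted p = 0.011) but did not pass without replicate 3 of rhBMP-2/ACS or replicate 1 of vehicle/ACS (adjusted p = 0.065 to 0.137). Id1, an inhibitor of basic helix-loop-helix factors and a direct Smad target, was at 7.61, 7.78 and 8.23 on the rhBMP-2/ACS arrays, against 6.51, 7.16 and 7.21 on the vehicle/ACS arrays (log2 fold change 0.92, SE 0.197, adjusted p = 0.0031), with replicate 3 of rhBMP-2/ACS the highest, but was lost without replicate 3 of rhBMP-2/ACS (adjusted p = 0.0546). Tgfb1 rose by 0.79 but did not pass without replicate 3 of rhBMP-2/ACS or replicate 1 or 2 of vehicle/ACS (adjusted p = 0.0597 to 0.324), and Hes1, a repressor of the Notch pathway, by 0.52 but did not pass without replicate 3 of rhBMP-2/ACS or replicate 1 or 3 of vehicle/ACS (adjusted p = 0.0646 to 0.325). The rises among the targets numbered none without replicate 3 of rhBMP-2/ACS or with the 6 arrays alone and 1 without replicate 1 of vehicle/ACS. Those of the first list numbered 1 without replicate 3 of rhBMP-2/ACS or with the 6 arrays alone and 5 without replicate 1 of rhBMP-2/ACS or replicate 3 of vehicle/ACS. The inhibitory Smad genes Smad6 and Smad7 were below the detection filter and not tested.

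Glial genes moved unevenly. Of 12 satellite glia genes 1 rose (8.33%, beside 7.21% of all probes). This was Gfap, the intermediate filament of reactive glia, at 10.07, 10.52 and 10.95 with rhBMP-2/ACS and 8.55, 8.09 and 8.34 with vehicle/ACS (log2 fold change 2.19, SE 0.377, adjusted p = 0.000531), with the groups more than 1 log2 unit apart and a surgery-alone mean of 8.09. The summed satellite glia markers were 2986 to 4431 with rhBMP-2/ACS and 2292 to 4572 with vehicle/ACS, and the probe of their channel Kcnj10 was not detected. Myelin genes of Schwann cells rose in 2 of 12 (median 0.05), Gldn and Egr2, while the Schwann marker sum was 19560 to 23494 with rhBMP-2/ACS and 22632 to 25214 with vehicle/ACS. In the list for repair and immature Schwann cells 4 of 12 rose (median 0.32). It held Jun, a driver of the repair state (log2 fold change 0.52, adjusted p = 0.0245), which did not pass without replicate 3 of rhBMP-2/ACS or replicate 2 or 3 of vehicle/ACS (adjusted p = 0.0771 to 0.249), and the growth factor binding protein Igfbp2 (log2 fold change 0.65, adjusted p = 0.0118), which did not pass without replicate 3 of rhBMP-2/ACS or replicate 2 of vehicle/ACS (adjusted p = 0.0846 to 0.145). The count of higher members was 1 with the 6 arrays alone and 2 without replicate 3 of rhBMP-2/ACS or replicate 2 of vehicle/ACS.

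Vessel genes rose in 5 of 18 endothelial members and none fell (median 0.39; 1 with the 6 arrays alone, 2 without replicate 3 of rhBMP-2/ACS and 10 without replicate 1 of rhBMP-2/ACS). Vwf, the von Willebrand factor stored in endothelial cells, was at 8.26, 8.36 and 9.34 with rhBMP-2/ACS, against 7.06, 7.37 and 7.66 with vehicle/ACS (log2 fold change 1.29, adjusted p = 0.000915), and Sox18, an endothelial transcription factor, at 5.64, 6.00 and 5.92 on the rhBMP-2/ACS arrays, against 4.60, 4.78 and 5.32 on the vehicle/ACS arrays (log2 fold change 0.95, adjusted p = 0.00361). Both were stable. Egfl7 rose by 0.88 but did not pass without replicate 3 of rhBMP-2/ACS (adjusted p = 0.0638), and the junction protein Esam by 0.65 but did not pass without replicate 3 of rhBMP-2/ACS (adjusted p = 0.0991). The endothelial marker sum was 380 to 742 with rhBMP-2/ACS and 197 to 281 with vehicle/ACS, with Cdh5 not detected. Most of this sum was Vwf itself, and the other tested marker, Tek, did not pass in limma (log2 fold change 0.17, adjusted p = 0.554). Icam1, the adhesion molecule that leukocytes bind on inflamed endothelium, was at 6.83, 7.08 and 7.70 with rhBMP-2/ACS and 6.20, 5.70 and 6.12 with vehicle/ACS (log2 fold change 1.20, adjusted p = 0.00259) and was the stable one of 4 that rose among 9 adhesion genes. Vcam1 rose by 0.72 but did not pass without replicate 3 of rhBMP-2/ACS or replicate 1 or 2 of vehicle/ACS (adjusted p = 0.0953 to 0.309), F11r by 0.49 but did not pass without replicate 2 or 3 of rhBMP-2/ACS or replicate 1 or 2 of vehicle/ACS (adjusted p = 0.0625 to 0.176), and Selp, P-selectin, by 1.44 but did not pass without replicate 2 or 3 of rhBMP-2/ACS or replicate 2 or 3 of vehicle/ACS (adjusted p = 0.0519 to 0.307). The higher members of that list numbered 1 without replicate 3 of rhBMP-2/ACS or replicate 2 of vehicle/ACS or with the 6 arrays alone and 2 without replicate 1 of vehicle/ACS.

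Blood-derived RNA differed between arrays. The erythroid marker sum was 6965 to 10801 with rhBMP-2/ACS and 2586 to 6410 with vehicle/ACS. It came almost wholly from the haemoglobin gene Hbb, the only marker tested, which did not pass in limma (log2 fold change 0.86, adjusted p = 0.142). Among erythroid genes 1 of 7 rose, Bpgm (log2 fold change 0.34, adjusted p = 0.00704), which did not pass without replicate 3 of rhBMP-2/ACS (adjusted p = 0.0907). The part of blood content in the lists above was not tested. Coagulation and platelet genes rose in 5 of 13 (median 0.46), with 1 without replicate 3 of rhBMP-2/ACS or with the 6 arrays alone, 2 without replicate 1 of vehicle/ACS and 3 without replicate 2 of vehicle/ACS. Pros1, the anticoagulant protein S, rose by 0.86 but did not pass without replicate 3 of rhBMP-2/ACS or replicate 2 of vehicle/ACS (adjusted p = 0.081 to 0.148). F13a1, a transglutaminase that crosslinks fibrin, rose by 0.46 but did not pass without replicate 2 or 3 of rhBMP-2/ACS or replicate 1 or 3 of vehicle/ACS (adjusted p = 0.078 to 0.111). F5, the cofactor of prothrombin activation, was not detected on any vehicle/ACS array, rose at least 1.24-fold (adjusted p = 0.0253), but was lost without replicate 3 of rhBMP-2/ACS or replicate 1 or 3 of vehicle/ACS (adjusted p = 0.0594 to 0.192). Skeletal muscle markers, which could reach the sample at dissection, summed to 391 to 462 with rhBMP-2/ACS and 405 to 753 with vehicle/ACS, and none of the 3 tested markers passed in limma (none had an unadjusted p under 0.05).

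Genes of dividing cells rose in 8 of 27 members and none fell (median 0.46), but the rises numbered none without replicate 3 of rhBMP-2/ACS or with the 6 arrays alone, 1 without replicate 2 of vehicle/ACS and 5 without replicate 1 of vehicle/ACS. Ccnd1, the cyclin of early G1, was at 10.46, 10.15 and 10.88 with rhBMP-2/ACS, against 9.61, 9.54 and 10.03 with vehicle/ACS (log2 fold change 0.77, adjusted p = 0.0139; lost without replicate 3 of rhBMP-2/ACS or replicate 2 of vehicle/ACS (adjusted p = 0.077 to 0.156)). Ccnb2, a mitotic cyclin, rose by 0.84 (lost without replicate 3 of rhBMP-2/ACS or replicate 2 of vehicle/ACS (adjusted p = 0.0777 to 0.247)), and Mcm2, part of the replicative helicase, by 0.61 (lost without replicate 3 of rhBMP-2/ACS or replicate 1 or 3 of vehicle/ACS (adjusted p = 0.0765 to 0.285)). Ribosomal protein genes moved by little but in 1 direction, 23 of 56 higher, none lower and 52 positive (median 0.20). Rps18 was at 13.01, 13.12 and 13.20 on the rhBMP-2/ACS arrays, against 12.81, 12.51 and 12.64 on the vehicle/ACS arrays (log2 fold change 0.45, adjusted p = 0.000457) and Rpl22 at 12.23, 12.35 and 12.65 with rhBMP-2/ACS and 11.85, 11.77 and 11.91 with vehicle/ACS (log2 fold change 0.56, adjusted p = 0.00116), with Rpsa and Rpl35 at 0.45 and 0.52. These 4 were stable, but the list count was 4 with the 6 arrays alone, 5 without replicate 3 of rhBMP-2/ACS and 10 without replicate 2 of vehicle/ACS. Ribosomal protein genes have many near-identical pseudogene copies that a probe may share.

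The 12 genes with the largest stable falls are given next. Pla2g5, a secreted phospholipase A2, was at 6.02, 5.75 and 5.24 with rhBMP-2/ACS, against 6.98, 6.81 and 6.46 with vehicle/ACS (log2 fold change -1.08, SE 0.224, adjusted p = 0.00246). Tef, a transcription factor under clock control, was at 6.07, 6.28 and 5.60 on the rhBMP-2/ACS arrays, against 6.88, 6.93 and 7.09 on the vehicle/ACS arrays (log2 fold change -0.98, SE 0.191, adjusted p = 0.00147). Slc27a3, an acyl-CoA synthetase of the fatty acid transport family, was at 5.65, 5.56 and 5.39 with rhBMP-2/ACS and 6.22, 6.74 and 6.50 with vehicle/ACS (log2 fold change -0.95, adjusted p = 0.00125). The rhBMP-2/ACS arrays lay below all vehicle/ACS arrays for all 3. Acsbg1, an acyl-CoA synthetase of very long chain fatty acids, was at 9.47, 9.35 and 9.04 with rhBMP-2/ACS, against 10.23, 10.40 and 10.03 with vehicle/ACS (log2 fold change -0.93, adjusted p = 0.000358). Marchf5, a mitochondrial ubiquitin ligase, was at 5.81, 6.44 and 6.03 on the rhBMP-2/ACS arrays, against 7.19, 6.99 and 6.77 on the vehicle/ACS arrays (log2 fold change -0.89, adjusted p = 0.00259) and Htt, the huntingtin gene, at 5.79, 6.02 and 5.62 with rhBMP-2/ACS and 6.31, 6.88 and 6.84 with vehicle/ACS (log2 fold change -0.87, adjusted p = 0.0022). Replicate 3 of rhBMP-2/ACS was not always the lowest array, and none of these overlapped.

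Further stable falls included receptors and a ligand. Gpr22, an orphan receptor, was at 6.61, 6.76 and 6.21 with rhBMP-2/ACS, against 7.34, 7.46 and 7.31 with vehicle/ACS (log2 fold change -0.84, adjusted p = 0.00193). Pdgfd, a ligand of the PDGF beta receptor, was at 5.37, 5.60 and 5.50 on the rhBMP-2/ACS arrays, against 6.29, 6.13 and 6.55 on the vehicle/ACS arrays (log2 fold change -0.83, adjusted p = 0.0023). Kcnh2, the potassium channel hERG, was at 6.33, 6.10 and 5.98 with rhBMP-2/ACS and 6.78, 6.93 and 6.76 with vehicle/ACS (log2 fold change -0.68, adjusted p = 0.00259). Each was lower on every rhBMP-2/ACS array than on any vehicle/ACS array. Gpd1, the cytosolic glycerol-3-phosphate dehydrogenase, fell by 0.68 (6.19, 5.95 and 5.91 with rhBMP-2/ACS and 6.94, 6.61 and 6.56 with vehicle/ACS; log2 fold change -0.68, adjusted p = 0.00292), and Nmnat2, an NAD-synthesising enzyme that axons need to survive, fell (4.84, 5.17 and 4.61 with rhBMP-2/ACS and 5.53, 5.43 and 5.63 with vehicle/ACS; log2 fold change -0.66, adjusted p = 0.00259). Adhfe1, a mitochondrial transhydrogenase, was not detected on any rhBMP-2/ACS array and was at 4.99, 4.68 and 4.93 with rhBMP-2/ACS, against 5.45, 5.79 and 5.77 with vehicle/ACS (adjusted p = 0.00137), so it was at least 1.56-fold lower. With equal medians in place of quantile normalization 17 of the 44 named genes that fell still passed, and no difference turned positive.

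Neuronal lists held small falls, most of which did not pass under another scaling. Synaptic vesicle genes fell in 8 of 32 members (5.81% of all probes fell) and 1 rose, at a median of -0.28, potassium and HCN channel genes fell in 7 of 34 (median -0.28), and cytoskeletal and axonal genes fell in 7 of 30 with 1 higher (median -0.19). With equal medians none of the first and the third list and 3 of the channel genes fell, and 1 gene rose in each list. The count of falls for the vesicle list was none without replicate 3 of rhBMP-2/ACS, 1 with the 6 arrays alone and 4 without replicate 2 of vehicle/ACS. For the channel list it was none with the 6 arrays alone, 2 without replicate 3 of rhBMP-2/ACS, 4 without replicate 2 of vehicle/ACS and 12 without replicate 1 of rhBMP-2/ACS. For the cytoskeletal list it was none without replicate 3 of rhBMP-2/ACS or with the 6 arrays alone and 1 without replicate 2 of vehicle/ACS. Rab3a, a small GTPase of synaptic vesicles, was at 8.09, 8.39 and 7.93 on the rhBMP-2/ACS arrays, against 8.49, 8.91 and 8.85 on the vehicle/ACS arrays (log2 fold change -0.61, adjusted p = 0.00312) but was lost without replicate 3 of rhBMP-2/ACS (adjusted p = 0.0509). Kcnc1, a fast-firing potassium channel, was at 6.36, 6.19 and 6.13 with rhBMP-2/ACS and 6.84, 6.87 and 6.73 with vehicle/ACS (log2 fold change -0.58, adjusted p = 0.00388) and was stable. Nefm, the medium neurofilament, was at 11.89, 11.76 and 11.60 with rhBMP-2/ACS, against 12.06, 12.18 and 11.90 with vehicle/ACS (log2 fold change -0.30, adjusted p = 0.0145) but was lost without replicate 3 of rhBMP-2/ACS or replicate 2 of vehicle/ACS (adjusted p = 0.11 to 0.161). Stmn2, a tubulin-binding protein of growing axons, fell (log2 fold change -0.28, adjusted p = 0.00893) but was lost without replicate 3 of rhBMP-2/ACS or replicate 2 of vehicle/ACS (adjusted p = 0.0543 to 0.116).

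Of 34 nociceptor channels and receptors none rose and 2 fell (5.88%, beside 5.81% of all probes; 28 differences negative, median -0.20), the ATP receptor P2rx6 (log2 fold change -0.58, adjusted p = 0.0128; lost without replicate 3 of rhBMP-2/ACS (adjusted p = 0.108)) and the cation channel Trpv2 (log2 fold change -0.26, adjusted p = 0.0434; lost without replicate 2 or 3 of rhBMP-2/ACS or replicate 1, 2 or 3 of vehicle/ACS (adjusted p = 0.0645 to 0.216)). With equal medians none fell and 1 rose, and under quantile normalization the falls numbered none without replicate 3 of rhBMP-2/ACS, 1 without replicate 2 or 3 of vehicle/ACS or with the 6 arrays alone and 4 without replicate 1 of rhBMP-2/ACS. Trpv1, the capsaicin receptor, was at 10.04, 10.07 and 10.09 on the rhBMP-2/ACS arrays, against 10.08, 10.12 and 10.18 on the vehicle/ACS arrays (log2 fold change -0.06, SE 0.0986, adjusted p = 0.72) and Tac1, the precursor of substance P, at 12.17, 11.95 and 11.98 with rhBMP-2/ACS and 12.28, 12.15 and 12.11 with vehicle/ACS (log2 fold change -0.15, SE 0.084, adjusted p = 0.24). Both overlapped between groups. Among 22 neuropeptide genes Trh, the thyrotropin-releasing hormone precursor, rose and Nmb, the neuromedin B precursor, fell. This was 4.55% each way, beside 7.21% of all probes higher and 5.81% lower. Trh was at 6.40, 5.71 and 5.48 with rhBMP-2/ACS, against 4.84, 4.84 and 4.78 with vehicle/ACS (adjusted p = 0.000536), was not detected on any vehicle/ACS array, and rose at least 1.78-fold, with replicate 1 of rhBMP-2/ACS the highest. Nmb was at 10.83, 10.44 and 10.20 on the rhBMP-2/ACS arrays, against 10.83, 11.15 and 10.95 on the vehicle/ACS arrays (log2 fold change -0.48, adjusted p = 0.00742) but was lost without replicate 3 of rhBMP-2/ACS or replicate 2 of vehicle/ACS (adjusted p = 0.0599 to 0.119). Calca and Pdyn were below the detection filter and were not tested. Sodium and calcium channel genes gave 1 call each way among 17, Scn1a lower (log2 fold change -0.42, adjusted p = 0.0125; lost without replicate 3 of rhBMP-2/ACS (adjusted p = 0.094)) and Cacna1c higher (log2 fold change 0.40, adjusted p = 0.0149; lost without replicate 3 of rhBMP-2/ACS or replicate 2 or 3 of vehicle/ACS (adjusted p = 0.0528 to 0.16)). The falls numbered none without replicate 3 of rhBMP-2/ACS, 2 without replicate 2 of rhBMP-2/ACS and 3 without replicate 1 of rhBMP-2/ACS or replicate 1 of vehicle/ACS, and none with equal medians. The rises numbered none without replicate 3 of rhBMP-2/ACS or replicate 2 or 3 of vehicle/ACS or with the 6 arrays alone.

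Nerve injury genes rose in 4 of 31 members (12.9%, beside 7.21% of all probes, with a median of 0.12). The rises numbered 1 without replicate 3 of rhBMP-2/ACS or replicate 2 of vehicle/ACS or with the 6 arrays alone and 2 without replicate 3 of vehicle/ACS. Reg3a, a secreted lectin induced in injured neurons of the rat, was at 6.78, 7.94 and 8.27 with rhBMP-2/ACS and 7.19, 6.44 and 5.41 with vehicle/ACS (log2 fold change 1.32, adjusted p = 0.0194) but was lost without replicate 2 or 3 of rhBMP-2/ACS or replicate 2 or 3 of vehicle/ACS (adjusted p = 0.0508 to 0.176). Gadd45a, a stress-induced gene of injured neurons, rose by 0.65 but did not pass without replicate 3 of rhBMP-2/ACS or replicate 2 or 3 of vehicle/ACS (adjusted p = 0.0727 to 0.295). Growth factor genes gave 6 rises and 2 falls among 28 (for the rises, none without replicate 3 of rhBMP-2/ACS and 1 with the 6 arrays alone). Hbegf, a heparin-binding ligand of the EGF receptor, was at 7.72, 8.01 and 8.62 with rhBMP-2/ACS, against 6.97, 7.01 and 7.00 with vehicle/ACS (log2 fold change 1.12, adjusted p = 0.00339) but was lost without replicate 3 of rhBMP-2/ACS (adjusted p = 0.0633), and Fgf2 rose by 0.82 but did not pass without replicate 3 of rhBMP-2/ACS (adjusted p = 0.0588). Of the ephrins and their receptors in the axon guidance list (1 of 25 higher, 5 lower; 2 higher and none lower with equal medians), Efnb1 rose (log2 fold change 0.65, adjusted p = 0.000915) and was stable. Ephb1 fell (log2 fold change -0.66, adjusted p = 0.00952) but did not pass without replicate 3 of rhBMP-2/ACS (adjusted p = 0.163). Over the list the rises numbered none with the 6 arrays alone, 2 without replicate 1 of rhBMP-2/ACS or with equal medians and 3 without replicate 2 of rhBMP-2/ACS. The falls numbered none without replicate 3 of rhBMP-2/ACS or with the 6 arrays alone, 1 without replicate 2 of vehicle/ACS and 2 without replicate 3 of vehicle/ACS.

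Metabolic genes shifted by small amounts, beside 5.81% of all probes that fell and 7.21% that rose. Of 54 respiratory chain and ATP synthase genes 5 fell, 1 rose and 49 differences were negative (median -0.06), but with equal medians none fell, 1 rose and the median was 0.03, and the falls numbered none with the 6 arrays alone, 1 without replicate 3 of rhBMP-2/ACS or replicate 2 of vehicle/ACS, 3 without replicate 2 of rhBMP-2/ACS and 8 without replicate 1 of rhBMP-2/ACS. Atp5f1a, the alpha subunit of ATP synthase, was at 13.01, 12.96 and 12.74 on the rhBMP-2/ACS arrays, against 13.23, 13.22 and 13.24 on the vehicle/ACS arrays (log2 fold change -0.32, SE 0.058, adjusted p = 0.000794) and was stable. Of 17 glycolysis genes 1 rose, 2 fell and 15 differences were negative (median -0.09). With equal medians 1 rose, none fell and 8 were negative. None fell without replicate 3 of rhBMP-2/ACS, without replicate 1 or 2 of vehicle/ACS, or with the 6 arrays alone. The gene that rose, against the direction of most of its list, was Ldha, lactate dehydrogenase A (11.43, 11.64 and 11.65 with rhBMP-2/ACS and 11.19, 11.04 and 11.21 with vehicle/ACS; log2 fold change 0.43, adjusted p = 0.000536; stable). Ldhb, the B subunit, fell (log2 fold change -0.29, adjusted p = 0.0317) but did not pass without replicate 3 of rhBMP-2/ACS or replicate 1, 2 or 3 of vehicle/ACS (adjusted p = 0.0658 to 0.222). Cholesterol synthesis genes fell in 4 of 17 (median -0.28), none with the 6 arrays alone, 1 without replicate 3 of rhBMP-2/ACS or replicate 2 of vehicle/ACS and 2 without replicate 1 of vehicle/ACS, and none with equal medians. Acat2, which joins acetyl-CoA units, was the stable one (log2 fold change -0.31, adjusted p = 0.00466).

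Prostaglandin genes gave 5 rises and 1 fall among 13, the fall being Pla2g5. Tbxas1, thromboxane synthase, a platelet and macrophage enzyme, was at 6.12, 6.30 and 7.64 with rhBMP-2/ACS and 5.28, 5.03 and 5.28 with vehicle/ACS (log2 fold change 1.49, SE 0.23, adjusted p = 0.000239) and was stable. Ptgs2, the inducible cyclooxygenase, was at 5.79, 5.99 and 7.53 with rhBMP-2/ACS, against 4.79, 5.10 and 5.77 with vehicle/ACS (log2 fold change 1.22, SE 0.414, adjusted p = 0.0483) but was lost without replicate 3 of rhBMP-2/ACS or replicate 1 or 2 of vehicle/ACS (adjusted p = 0.136 to 0.409). Pla2g4a, the cytosolic phospholipase that frees arachidonic acid, was at 5.71, 6.50 and 7.72 on the rhBMP-2/ACS arrays, against 4.68, 4.89 and 5.56 on the vehicle/ACS arrays (log2 fold change 1.60, adjusted p = 0.00763) but was lost without replicate 3 of rhBMP-2/ACS (adjusted p = 0.132). The rises numbered 1 without replicate 3 of rhBMP-2/ACS or with the 6 arrays alone and 3 without replicate 1 or 2 of vehicle/ACS.

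The same contrast gave no call in limma at 1 or 7 dps, with 4 arrays in each group (424 and 612 probes at an unadjusted p under 0.05). The effect at 3 dps differed from that at 1 dps at 163 probes (1.6%; at 130 it lay above and at 33 below the other effect on the signed scale, and with equal medians at 161 and 3) and from that at 7 dps at 831 (8.14%; 540 and 291). Both differences share the 3 dps arrays, and a batch that a whole time point shared cannot be told apart from the time. For A2m the effect at 3 dps exceeded that at 1 dps by 2.87 and that at 7 dps by 3.44 on the log2 scale. Both differences of A2m passed with any of the 22 arrays of the 3 time points left out. Gldn exceeded the effect at 1 and 7 dps by 2.45 and 2.83, and Gfap by 1.97 and 2.66. For Gldn and Gfap the difference from 1 dps did not pass without replicate 2 or 3 of vehicle/ACS or replicate 1 or 2 of rhBMP-2/ACS at 1 dps, nor without replicate 1 or 2 of vehicle/ACS or replicate 3 of rhBMP-2/ACS at 3 dps (for Gfap also replicate 2), with adjusted p up to 0.184 and 0.185, while that from 7 dps passed throughout. Of the 24 genes with the largest stable changes 17 differed from 1 dps and 23 from 7 dps, all but Nmnat2 at least once, and their choice by the effect at 3 dps favours such differences. The count against 1 dps was 7 without replicate 3 of rhBMP-2/ACS, 11 without replicate 2 of vehicle/ACS, 62 without replicate 1 of vehicle/ACS and 478 without replicate 1 of rhBMP-2/ACS at 3 dps. Leaving out arrays of 1 dps gave 20 and 29 without replicates 2 and 1 of rhBMP-2/ACS, 248 without its replicate 3, and 21 and 30 without replicates 3 and 2 of vehicle/ACS. The count against 7 dps was 215 without replicate 3 and 1252 without replicate 1 of rhBMP-2/ACS at 3 dps, 475 without replicate 2 of vehicle/ACS at 3 dps, and lay between 575 and 957 without any other array, and with equal medians it was 488 (451 and 37).

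**Figure D5:**
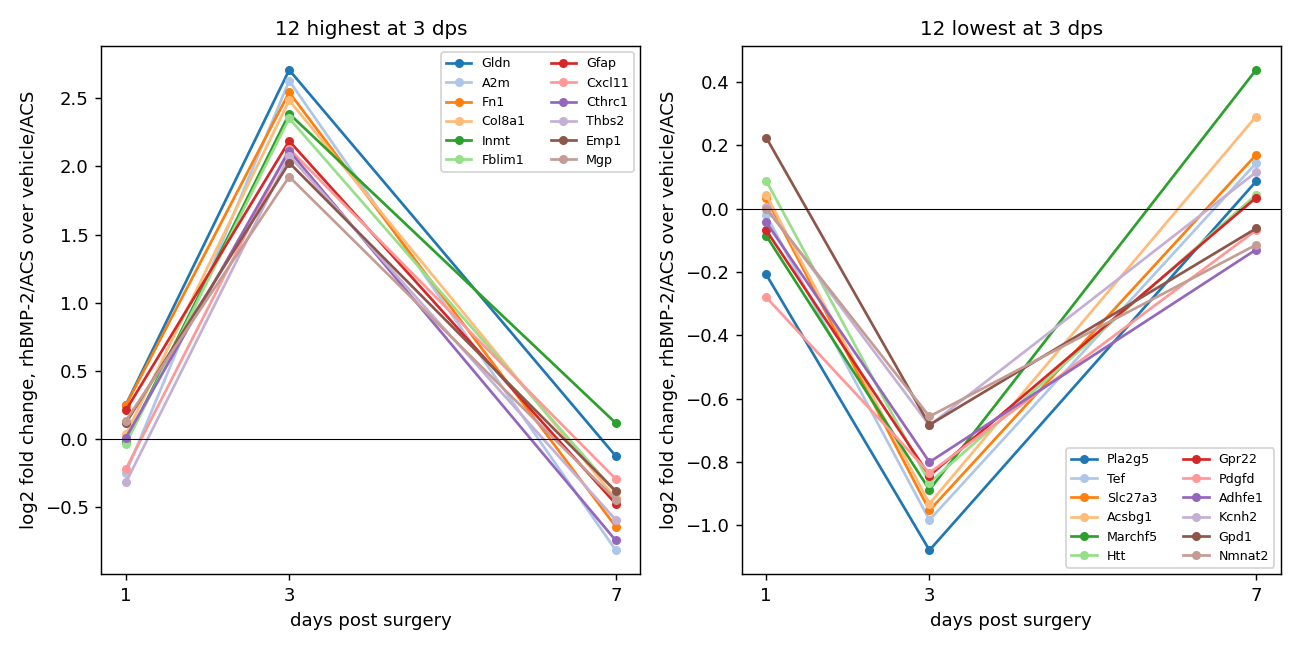
Log2 difference of rhBMP-2/ACS minus vehicle/ACS (vertical axis) at 1, 3 and 7 dps (horizontal axis, to scale), 1 line per gene for the 12 largest stable rises and the 12 largest stable falls, without error bars. The genes were chosen for their effect at 3 dps, where Gldn reached 2.71 and A2m 2.63.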

How the data were processed

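RNA of lumbar DRG from 33 rats had been hybridised to Illumina Rat Ref-12 BeadChips by the study's methods, although the label protocol names a mouse chip. The probe identifiers were given gene names through the platform annotation of the series' value table. The authors deposited the GenomeStudio intensity of every probe without background subtraction or normalization, with a detection p-value beside each, and a second table of intensity after offset background subtraction and quantile normalization, which was used only as an alternative. The GenomeStudio version was not given in the sources used here.

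The raw intensities of all 33 arrays were background-corrected and quantile-normalized with neqc (limma 3.58.1 in R 4.3.3, detection p-values, offset 16) and log2-transformed. Probes were kept at detection p under 0.05 on at least 75% of the arrays of either group. One linear model over the 9 groups (3 treatments at 1, 3 and 7 dps) with a variance trend gave the contrasts, adjusted by Benjamini-Hochberg over 10206 probes. The 33 arrays share 1 estimate of spread with 24 residual degrees of freedom. Of the 22523 probes 13793 had 1 gene symbol, 0 had several and 8730 had none. A gene was read at its brightest kept probe. Of 117 genes with several tested probes 18 had probes that differed in the call and 0 had calls in both directions. No 2 arrays held identical values. The number of arrays limits the precision. The script was tested on simulated data.

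Members and the 54 gene lists were chosen with earlier results of these data known. Named genes were the 12 highest and 12 lowest stable log2 fold changes without overlap of groups, up to 4 members per list by lowest p (the 2 brightest where none passed), and the genes in the study's text on these arrays. A fold beginning with "at least" sets the mean of the brighter group against the higher of the lowest detected signal and the dim probe's own on each array of the dimmer group. Marker sums add linear intensities. The study's thresholds were a fold over 1.66 and an unadjusted p under 0.1. Promoter sequences came from RefSeq (GRCr8). Alternatives changed the normalization, background correction, offset, filter, arrays in the fit, weights, trend, block, test and probe per gene. Figures were drawn with matplotlib 3.10.9 in Python 3.11.15.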

Additional observations from a re-analysis of the deposited data

Results flagged for a closer look

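At 3 dps the difference between rhBMP-2/ACS and vehicle/ACS arrays departed from the difference at another time point, by a limma contrast of the 2 effects (adjusted p under 0.05), for 23 of the 24 genes of largest stable change. The genes were chosen for their effect at 3 dps, which favours such differences. Values are log2 differences of effects, 3 dps minus the other time. Against 1 dps and against 7 dps, the effect at 3 dps was larger by 2.45 and 2.83 for Gldn, 2.87 and 3.44 for A2m, 2.29 and 3.18 for Fn1, 2.45 and 2.92 for Col8a1, 2.41 and 2.27 for Inmt, and 2.39 and 2.74 for Fblim1. It was larger by 1.97 and 2.66 for Gfap, 2.35 and 2.42 for Cxcl11, 2.10 and 2.86 for Cthrc1, 2.39 and 2.67 for Thbs2, 1.91 and 2.41 for Emp1, and 1.79 and 2.37 for Mgp.

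Among the genes that fell, the difference from 1 dps and from 7 dps was -0.96 and -1.13 for Tef, -0.99 and -1.12 for Slc27a3, -0.98 and -1.22 for Acsbg1, -0.95 and -0.91 for Htt, and -0.91 and -0.62 for Gpd1. From 7 dps alone it passed for Pla2g5 at -1.17, Marchf5 at -1.33, Gpr22 at -0.88, Pdgfd at -0.77, Adhfe1 at -0.67 and Kcnh2 at -0.80.

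The differences of A2m passed in all 24 alternatives. For Gldn, Fn1, Col8a1, Fblim1, Thbs2, Emp1, Mgp, Inmt and Gfap the difference from 1 dps did not pass without replicate 2 or 3 of vehicle/ACS or replicate 1 or 2 of rhBMP-2/ACS at 1 dps, nor without replicate 1 or 2 of vehicle/ACS or replicate 3 of rhBMP-2/ACS at 3 dps, where the adjusted p reached 0.202. That of Cxcl11 did not pass without replicate 3 of rhBMP-2/ACS at 3 dps (adjusted p = 0.0501), and that of Cthrc1 without this array or replicate 2 of vehicle/ACS at 3 dps (adjusted p up to 0.0786). The differences of Tef, Slc27a3, Acsbg1, Htt and Gpd1 from 1 dps were lost without at least replicate 3 of rhBMP-2/ACS or replicate 2 of vehicle/ACS at 3 dps, with adjusted p up to 0.235. Against 7 dps those of Inmt, Pla2g5, Htt, Gpr22, Pdgfd, Adhfe1, Kcnh2 and Gpd1 were lost without replicate 3 of rhBMP-2/ACS at 3 dps, with adjusted p up to 0.143 over all alternatives.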

How the results depend on the processing

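In the comparison of rhBMP-2/ACS with vehicle/ACS at 3 dps 1329 probes passed (736 higher, 593 lower) and 393 met the study's thresholds. With 1 array left out the count was 260 to 1743 (182 to 895 higher, 78 to 848 lower), and 235 to 540 by the study's thresholds. Without both replicate 3 of rhBMP-2/ACS and replicate 2 of vehicle/ACS it was 46 (37 higher, 9 lower), and 219. The 6 arrays alone gave 179 (154 and 25), the 9 arrays of 3 dps alone 319 (236 and 83), and array weights 835 (320 lower). Equal medians gave 86 lower. A t-test with unequal variances gave 0 (0 higher, 0 lower) after Benjamini-Hochberg, 282 by the study's thresholds and 1091 at an unadjusted p under 0.05. This test was an assumption, since the study's methods name a software module for the arrays but no statistic. By the study's thresholds the authors' table gave 735, no background correction 161 and an offset of 50 gave 224. The cause of these changes was not tested, beyond the smaller number of arrays in the reduced fits. The other filters and the fit without a variance trend stayed within 1.5 times of the main counts. With the replicate number as a block 1262 passed (748 and 514). The same numbers correlated at 0.0998, 0.0592 and 0.177 in their deviations, and unlike numbers at -0.211 to 0.128. Not every array correlated best with its own number. Deviations from the mean of 3 arrays are tied to each other, so these values cannot decide whether the numbers pair the samples.

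Of the 24 genes of largest stable change, which were chosen to pass with each array left out, 18 passed with the 6 arrays alone, 23 with the 9 arrays, 5 with both arrays out and 0 by the t-test with unequal variances, and none changed sign. When only the 9142 probes detected on all 6 arrays were tested, 19 of the 24 genes were among them, and all 19 passed. Over all named genes and alternatives 2584 values kept their side of the threshold, 616 lost it and 1 gained it. A change of direction was counted only where the main fit or the alternative passed, and 0 were found. Values that passed in neither could change sign, as for Cd72, which lay between -0.32 and 0.12 over the alternatives. For differences between time points these numbers were 987, 144, 21 and 0, and of the list counts 935 stayed within 1.5 times and 425 moved further. With equal medians all 117 named genes that rose still passed, and 17 of the 44 that fell.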

Other observations

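Genes of other cell types and processes gave the following values in the same comparison, in which 7.21% of all tested probes rose and 5.81% fell. Of 24 lysosome and phagosome genes 6 rose and none fell, with a median log2 difference of 0.06 (none without replicate 3 of rhBMP-2/ACS, 1 with the 6 arrays alone, 2 without replicate 1 of vehicle/ACS and 3 without replicate 2 of vehicle/ACS). Cd63, a tetraspanin of late endosomes, rose by 0.62 but did not pass without replicate 3 of rhBMP-2/ACS (adjusted p = 0.0675), and Gusb, a lysosomal glucuronidase, rose by 0.33 but did not pass without replicate 3 of rhBMP-2/ACS or replicate 1 or 2 of vehicle/ACS (adjusted p = 0.0821 to 0.166). In the insulin-like growth factor system 3 of 11 rose and none fell, with a median of 0.53 (none without replicate 3 of rhBMP-2/ACS or replicate 2 of vehicle/ACS or with the 6 arrays alone, 1 without replicate 1 of vehicle/ACS and 5 without replicate 1 of rhBMP-2/ACS or with equal medians). The mean level of this list was 8.12, 8.19 and 8.52 with rhBMP-2/ACS and 7.73, 7.76 and 7.98 with vehicle/ACS. Under surgery alone it was 8.08, above all vehicle/ACS arrays. Igfbp3, the main carrier of these factors in serum, was at 7.91, 8.79 and 8.74 with rhBMP-2/ACS and 7.44, 7.43 and 8.00 with vehicle/ACS (log2 fold change 0.86, adjusted p = 0.0173) but was lost without replicate 2 or 3 of rhBMP-2/ACS or replicate 1 or 2 of vehicle/ACS (adjusted p = 0.0645 to 0.136).

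Genes of protein folding in the endoplasmic reticulum rose in 2 of 19 (median 0.24; none without replicate 3 of rhBMP-2/ACS or with the 6 arrays alone, 1 without replicate 1 or 2 of vehicle/ACS and 5 without replicate 1 of rhBMP-2/ACS), and heat shock and glucocorticoid response genes in 2 of 22 (median 0.02; none without replicate 3 of rhBMP-2/ACS and 1 without replicate 2 of vehicle/ACS), with no fall in either. Pdia6, a disulfide isomerase, rose by 0.40 but did not pass without replicate 3 of rhBMP-2/ACS (adjusted p = 0.0734). Cryab, a small heat shock protein, rose by 0.55 but did not pass without replicate 3 of rhBMP-2/ACS (adjusted p = 0.0527), and Mt1, a metallothionein, rose by 1.10 but did not pass without replicate 3 of rhBMP-2/ACS or replicate 2 of vehicle/ACS (adjusted p = 0.0609 to 0.119). Of 11 clock genes Tef fell and Bhlhe40, a repressor of the clock that also responds to hypoxia, rose (log2 fold change 0.92, adjusted p = 0.00317) but did not pass without replicate 3 of rhBMP-2/ACS (adjusted p = 0.0669). Of 17 Wnt and Notch genes Hes1 rose and Sfrp5, a secreted Wnt inhibitor, fell (log2 fold change -0.90, adjusted p = 0.0165) but did not pass without replicate 3 of rhBMP-2/ACS or replicate 2 of vehicle/ACS (adjusted p = 0.0804 to 0.148).

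Cartilage and bone genes rose in 2 of 6, Spp1 and Prg4. Prg4, the joint lubricant lubricin, was at 6.27, 6.73 and 8.48 with rhBMP-2/ACS, against 5.01, 5.10 and 6.16 with vehicle/ACS (log2 fold change 1.73, adjusted p = 0.0317) but was lost without replicate 3 of rhBMP-2/ACS or replicate 1 or 2 of vehicle/ACS (adjusted p = 0.0999 to 0.305). Adipocyte genes fell in 2 of 11 and none rose. These were Gpd1 and Scd, a fatty acid desaturase (log2 fold change -0.66, adjusted p = 0.00317), which did not pass without replicate 3 of rhBMP-2/ACS (adjusted p = 0.0638). Slc13a3, a dicarboxylate transporter of the meninges, was at 7.30, 7.06 and 6.19 on the rhBMP-2/ACS arrays, against 7.49, 8.22 and 7.87 on the vehicle/ACS arrays (log2 fold change -1.01, adjusted p = 0.0114) but was lost without replicate 3 of rhBMP-2/ACS or replicate 2 of vehicle/ACS (adjusted p = 0.0805 to 0.164). Pericyte and smooth muscle genes rose in 1 of 9, Des, the muscle intermediate filament desmin (log2 fold change 0.85, adjusted p = 0.0411), which did not pass without replicate 2 or 3 of rhBMP-2/ACS or replicate 1, 2 or 3 of vehicle/ACS (adjusted p = 0.0533 to 0.323). Among skeletal muscle genes 1 of 8 rose, Myl2, a myosin light chain not detected on any vehicle/ACS array, at least 1.08-fold (adjusted p = 0.0365), which did not pass without replicate 1 or 3 of rhBMP-2/ACS or replicate 2 or 3 of vehicle/ACS (adjusted p = 0.0626 to 0.143).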
